A study of Mus musculus with 18 samples.

Results

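Expression of 8 B cell and plasma cell genes was followed across 18 mouse tumors. The genes were chosen by name, as *Cd79a*, *Cd79b*, *Ms4a1*, *Pax5*, *Pou2af1*, *Jchain*, *Mzb1*, and *Tnfrsf17*, and all 8 were found among the 20878 genes measured. The tumors had grown from K7M2 cells, a mouse osteosarcoma line of Balb/c origin, after a graft under the skin of female mice aged 6 to 8 weeks. Every graft carried an shRNA, either a control (ATRX-CT cells) or one against *Atrx* (ATRX-KD cells), a gene for a chromatin remodeler. The hosts were immunocompetent Balb/c mice or NSG mice, which carry a *Prkdc* scid and an *Il2rg* null allele and do not make mature T, B, or NK cells. The groups held 4 Balb/c ATRX-CT, 4 Balb/c ATRX-KD, 5 NSG ATRX-CT, and 5 NSG ATRX-KD tumors, each from 1 mouse named by its number. The study asked whether loss of ATRX changes the immune response to a sarcoma, and the comparison of hosts sets tumors of mice with and without mature lymphocytes side by side.

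B cells recognize antigen through a surface immunoglobulin, which signals through the paired chains CD79A and CD79B. *Pax5* keeps B cells in their lineage, and its loss accompanies the passage to plasma cells, which secrete antibody with the help of chaperones such as MZB1 and of the joining chain that links polymeric immunoglobulins. In tumors, B cells and plasma cells may be scattered or gathered around vessels and in lymphoid aggregates.

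Values are FPKM, counts of fragments scaled to transcript length and to the size of the library, so levels of different genes can be compared. Libraries held an estimated 15150000 to 25200000 fragments, and between 16108 and 18212 genes were above 0. *Atrx* averaged 17.6 ± 7.12 FPKM in Balb/c ATRX-CT and 14.0 ± 6.54 in Balb/c ATRX-KD tumors (SD, n = 4 each), against 17.6 ± 4.99 and 10.2 ± 3.47 in NSG tumors (SD, n = 5 each), and it was called in neither host (adjusted p = 0.999 in Balb/c and 0.061 in NSG, limma). *Il2rg*, the receptor chain disrupted in NSG mice, was 22.8 to 36.8 FPKM in Balb/c and 5.5 to 14.5 FPKM in NSG tumors. *Ddx3y*, a Y-linked gene, was listed at 0 in all 8 Balb/c tumors and lay between 4.91 and 12.5 FPKM in all 10 NSG tumors, although the methods describe female mice of both strains. Strain, immune status, and whatever carried the Y-linked transcripts cannot be told apart in the comparison of hosts. Cages of 5 mice were assigned to a kind of cell as a whole, and cage and knock-down cannot be told apart either.

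All 8 genes were at low levels. In Balb/c tumors, *Jchain* had the highest median (2.46 FPKM), followed by *Cd79b* (1.29), *Cd79a* (0.693), *Mzb1* (0.575), *Tnfrsf17* (0.465), *Ms4a1* (0.303), *Pou2af1* (0.191), and *Pax5* (0.152). The ranges of every pair of neighbors in this order overlapped. Immunoglobulin genes were not analysed here, so that plasma cells were read from *Jchain*, *Mzb1*, *Pou2af1*, and *Tnfrsf17* and not from antibody transcripts. In bulk tumors, fewer cells of a type and less RNA per cell cannot be told apart.

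**Figure D1:**
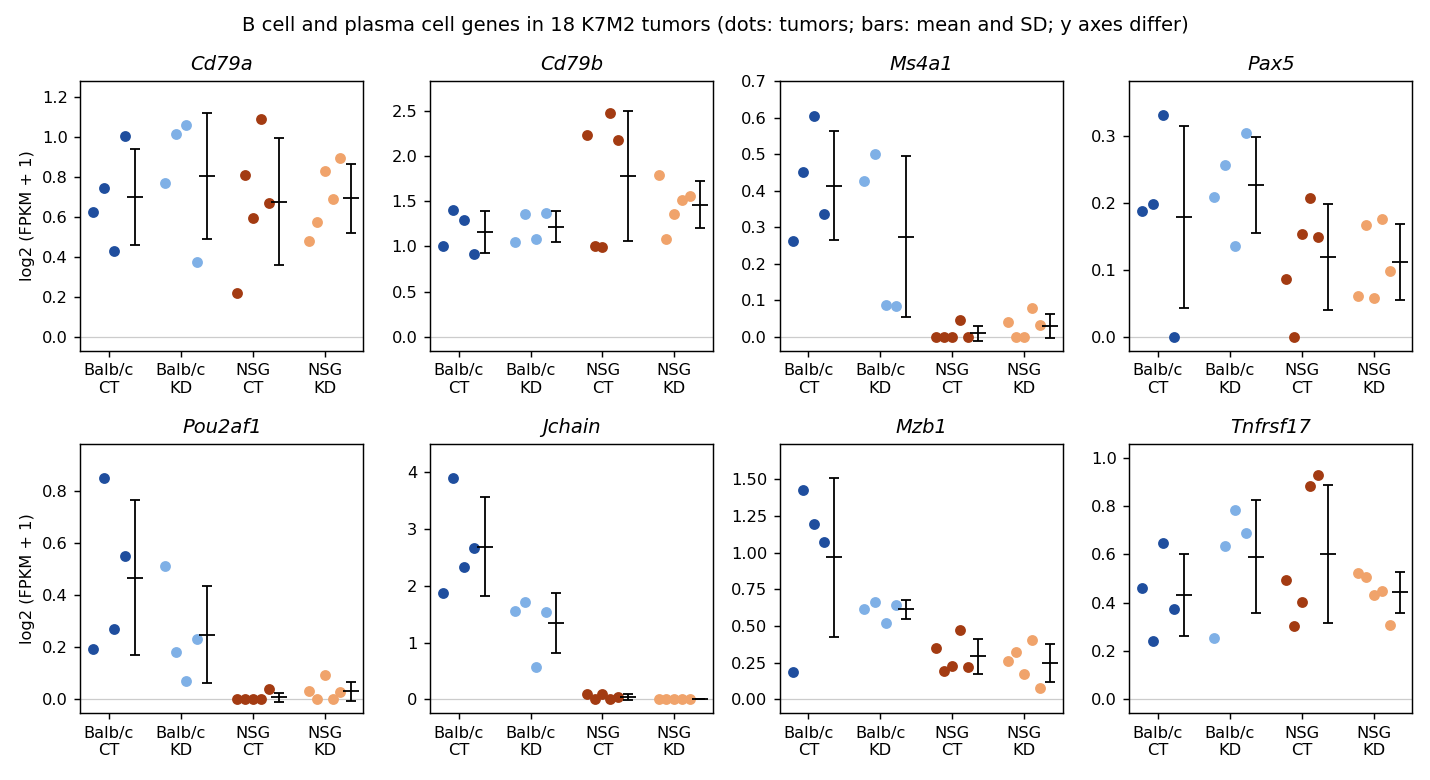
Level of each gene as log2 (FPKM + 1) on the y axis in the 18 tumors, grouped on the x axis by host and shRNA (CT, control; KD, Atrx), with 1 dot per tumor and the mean and SD beside the dots; the y axes differ between genes. Jchain and Ms4a1 separate the 8 Balb/c from the 10 NSG tumors, but for Ms4a1 the nearest tumors of both hosts are at an estimated 2.2 fragments each. The hosts overlap for Cd79a, Cd79b, Pax5, and Tnfrsf17.

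*Cd79a* and *Cd79b* encode the signaling chains of the B cell receptor. *Cd79a* (mm10, chr7:24897511-24902197, plus strand) ranged from 0.297 to 1.09 FPKM around a median of 0.693 in the 8 Balb/c tumors. In the 10 NSG tumors it ranged from 0.165 to 1.13 FPKM around a median of 0.602. The NSG range contained the Balb/c range. The difference between hosts, averaged over both shRNAs, was 0.07 ± 0.12 in log2 (FPKM + 1) (SE, 95% interval -0.18 to 0.32, adjusted p = 0.736, limma).

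*Cd79b* (chr11:106311341-106314562, minus strand) was 1.01, 1.65, 1.45, and 0.886 FPKM in Balb/c ATRX-CT mice 41, 43, 44, and 45. It was 1.07, 1.56, 1.12, and 1.59 FPKM in Balb/c ATRX-KD mice 56, 58, 59, and 60. In NSG ATRX-CT mice 1 to 5 it was 3.68, 1.01, 0.993, 4.56, and 3.5 FPKM. NSG mice 1, 4, and 5 were thus above every Balb/c tumor, and mice 2 and 3 were within the Balb/c range. NSG ATRX-KD mice 26 to 30 had 2.45, 1.11, 1.57, 1.85, and 1.94 FPKM. The host difference was -0.43 ± 0.19 in log2 (FPKM + 1), toward the NSG side (95% interval -0.83 to -0.04), and was not called (adjusted p = 0.154, limma; exact permutation test within shRNA, p = 0.052). Without NSG mouse 3 the adjusted p was 0.0460 for a difference of -0.53, and with library weights it was 0.00427 for a difference of -0.62.

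*Ms4a1* encodes CD20, a surface protein of mature B cells that is lost in plasma cells. The gene (chr19:11250603-11266151, minus strand) was 0.199, 0.368, 0.522, and 0.263 FPKM in Balb/c ATRX-CT mice 41, 43, 44, and 45. In Balb/c ATRX-KD mice 56, 58, 59, and 60 it was 0.344, 0.415, 0.0619, and 0.0598 FPKM. Mice 59 and 60 were low, each at an estimated 2.2 fragments, under the floor of 3 fragments used here for a detected level. In NSG tumors *Ms4a1* was listed at 0 in 6 of 10 and was at most 0.0554 FPKM. The hosts did not overlap in FPKM, but NSG ATRX-KD mouse 29, the highest NSG tumor, was also at an estimated 2.2 fragments. The separation is therefore not resolved for mice 59 and 60. The mean was 19.8 times higher in Balb/c tumors, with only about 5.5 fragments in all 10 NSG tumors. On the log2 (FPKM + 1) scale, which understates changes of low genes, the difference was 0.32 ± 0.06 (SE, adjusted p = 0.00197, limma; exact permutation test, p = 0.000126, the smallest possible). An antisense gene, *4930526L06Rik*, spans *Ms4a1* and reached at most 0.0673 FPKM.

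*Pax5* and *Pou2af1* act in the nucleus. *Pax5*, the factor of B cell commitment (chr4:44531506-44710440, minus strand), ranged from 0 to 0.258 FPKM in Balb/c tumors and from 0 to 0.156 FPKM in NSG tumors. It was listed at 0 in 1 tumor of each host and was at or under 3 fragments in 3 of 8 Balb/c and 10 of 10 NSG tumors. The host difference of 0.09 ± 0.05 was not called (95% interval -0.01 to 0.19, adjusted p = 0.264, limma). Transcripts annotated on the opposite strand, among them *5730488B01Rik*, overlap *Pax5* exons.

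*Pou2af1* encodes a coactivator of octamer-binding factors that B cells need to form germinal centers and that plasma cells also express. The gene (chr9:51213690-51240079, plus strand) was 0.144, 0.802, 0.207, and 0.466 FPKM in Balb/c ATRX-CT mice 41, 43, 44, and 45. It was 0.425, 0.133, 0.0515, and 0.176 FPKM in Balb/c ATRX-KD mice 56, 58, 59, and 60. In NSG tumors it was listed at 0 in 6 of 10 and was at most 0.066 FPKM. Mouse 59 was the only Balb/c tumor within the NSG range. The mean was 21.8 times higher in Balb/c than in NSG tumors, where it rested on about 7.2 fragments in all, and 37.8 times higher without NSG ATRX-KD mouse 28. The log2 difference was 0.34 ± 0.08 (SE, adjusted p = 0.00774, limma; exact permutation test, p = 0.000252).

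*Jchain* encodes the joining chain of polymeric IgA and IgM, a product of plasma cells and their precursors. The gene (chr5:88519809-88527897, minus strand) was 2.65, 13.8, 4.01, and 5.29 FPKM in Balb/c ATRX-CT mice 41, 43, 44, and 45. It was 1.94, 2.27, 0.478, and 1.91 FPKM in Balb/c ATRX-KD mice 56, 58, 59, and 60. Every ATRX-KD tumor was thus below every ATRX-CT tumor, mouse 43 was the highest, and mouse 59 the lowest of the 8. In NSG ATRX-CT mice 1 to 5 *Jchain* was 0.0716, 0, 0.0694, 0, and 0.0309 FPKM, and it was listed at 0 in all 5 NSG ATRX-KD tumors. The lowest Balb/c tumor was above the highest NSG tumor. The mean was 235 times higher in Balb/c tumors, where NSG tumors had about 6.4 fragments in all and 9 of 10 were at or under 3 fragments, so that the ratio is imprecise. It was 154 without Balb/c mouse 43, 363 without NSG mouse 1, and 355 without NSG mouse 3. The difference was 1.99 ± 0.20 in log2 (FPKM + 1) (SE, adjusted p = 1.88e-06, limma; exact permutation test, p = 0.000126, the smallest possible). Against the floor of 3 fragments per library, *Jchain* was at least 23.6-fold higher in Balb/c ATRX-KD than in NSG ATRX-KD tumors.

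*Mzb1* encodes a chaperone of the endoplasmic reticulum that helps assemble and secrete IgM, and it is also expressed in plasmacytoid dendritic cells. The gene, on the minus strand of chromosome 18, was 0.138, 1.69, 1.29, and 1.1 FPKM in Balb/c ATRX-CT mice 41, 43, 44, and 45. In Balb/c ATRX-KD mice 56, 58, 59, and 60 it was 0.533, 0.586, 0.437, and 0.563 FPKM. In NSG tumors it ranged from 0.0541 to 0.388 FPKM around a median of 0.186. Mouse 41 lay within the NSG range, and the other 7 Balb/c tumors were above all NSG tumors. The mean was 3.77 times higher in Balb/c tumors, with a log2 difference of 0.52 ± 0.12 (SE, adjusted p = 0.00868, limma; exact permutation test, p = 0.00164). The call did not hold with library weights, with a difference of 0.34 and an adjusted p of 0.0543. GENCODE M21 places a same-strand protein-coding model named *SPATA24* over 695 exon bases of *Mzb1*, so the assignment of reads to *Mzb1* is uncertain.

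*Tnfrsf17* encodes BCMA, the receptor for APRIL and BAFF that sustains plasma cells. The gene (chr16:11313809-11320068, plus strand) ranged from 0.183 to 0.722 FPKM around a median of 0.465 in Balb/c tumors. In NSG tumors it ranged from 0.235 to 0.901 FPKM around a median of 0.387, and the highest values were those of ATRX-CT mice 4 and 5. The hosts overlapped, with a difference of -0.01 ± 0.09 in log2 (FPKM + 1) (SE, 95% interval -0.21 to 0.19, adjusted p = 0.945, limma). *Tnfrsf17* was above 0 in all 18 tumors, at about 3 to 10.2 fragments in NSG tumors.

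Windows around the start of *Jchain* and *Pou2af1*, which differed between hosts, and of *Cd79a*, which was not called, are shown as reference sequence. They are RefSeq sequences of GRCm38.p6, from 250 bases before the start in the promoter entry to 50 bases from it, written 5′ to 3′ on the strand of the gene, and 5 of the 8 genes had an entry. For *Cd79a* and *Pax5* that start differs from the start of the gene coordinates given above. The *Pax5* window lies wholly upstream of the latter. Positions of matches are counted from the start in the promoter entry. The *Jchain* window is chr5:88527848-88528147 (minus strand), that of *Pou2af1* is chr9:51213440-51213739 (plus strand), and that of *Cd79a* is chr7:24897247-24897546 (plus strand). Capitals mark matches to the E box CAGGTG or the PU.1 core GAGGAA on either strand.
Jchain: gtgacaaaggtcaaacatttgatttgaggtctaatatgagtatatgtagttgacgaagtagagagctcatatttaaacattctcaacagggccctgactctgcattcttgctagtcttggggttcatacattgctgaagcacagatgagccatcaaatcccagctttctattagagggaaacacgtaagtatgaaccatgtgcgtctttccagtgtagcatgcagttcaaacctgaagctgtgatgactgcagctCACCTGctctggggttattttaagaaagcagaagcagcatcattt
Pou2af1: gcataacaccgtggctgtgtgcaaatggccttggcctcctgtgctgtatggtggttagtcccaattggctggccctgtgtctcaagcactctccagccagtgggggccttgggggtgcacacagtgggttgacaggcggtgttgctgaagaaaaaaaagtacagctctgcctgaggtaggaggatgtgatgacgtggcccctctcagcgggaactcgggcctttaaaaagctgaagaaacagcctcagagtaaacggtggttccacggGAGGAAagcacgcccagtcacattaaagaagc
Cd79a: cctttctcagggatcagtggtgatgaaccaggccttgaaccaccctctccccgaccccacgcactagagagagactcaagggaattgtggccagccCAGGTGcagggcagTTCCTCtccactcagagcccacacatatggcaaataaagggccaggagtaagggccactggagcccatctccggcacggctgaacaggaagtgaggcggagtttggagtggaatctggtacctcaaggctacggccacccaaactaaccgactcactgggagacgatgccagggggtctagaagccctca

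The *Jchain* window held an E box 5 bases from the start, and the *Cd79a* window held an E box at -154 and a PU.1 core at -140. The *Pou2af1* window held a PU.1 core at 18, and the *Tnfrsf17* window, not printed, held one at -120. Over 32851 promoter windows of the same length, 20.2% held the E box and 28.3% the PU.1 core, so matches of this kind were common. The octamer ATGCAAAT (1.74% of windows) and the palindrome CCCNNGGG (13.7%), searched on both strands, did not occur in these 5 windows, the fifth being that of *Pax5*. The motifs did not overlap each other, and their letters are a description of the windows.

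The comparison of hosts asked which of the genes differed between mice with and without lymphocytes. Averaged over both shRNAs, 4 of 8 genes were called higher in Balb/c tumors (*Jchain*, *Ms4a1*, *Mzb1*, and *Pou2af1*) and 0 lower, beside 6.83% of 14803 genes called higher. The groups did not overlap for *Jchain* and *Ms4a1*, beside 1.53% of genes that lay above all NSG tumors in this way. For *Ms4a1*, the lowest Balb/c and the highest NSG tumors were at the same estimated 2.2 fragments, so only *Jchain* was clearly separated. The median log2 difference of the 8 genes was 0.21, against 0.00 over all genes tested. The other 4 genes (*Cd79a*, *Cd79b*, *Pax5*, and *Tnfrsf17*) had differences between -0.43 and 0.09 and were not called. The p-values set each difference against the spread between tumors within groups. They do not separate immune status from strain or from the source of the Y-linked transcripts.

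Within ATRX-CT tumors, the same 4 genes were called higher in Balb/c mice, beside 3.7% of all genes. The difference was 2.64 ± 0.29 for *Jchain*, 0.68 ± 0.17 for *Mzb1*, 0.46 ± 0.11 for *Pou2af1*, and 0.40 ± 0.09 for *Ms4a1* in log2 (FPKM + 1) (SE). *Jchain*, *Ms4a1*, and *Pou2af1* lay above all NSG ATRX-CT tumors, beside 4.72% of genes. By the exact permutation test, without adjustment, each of these had p = 0.0159, the smallest possible. *Mzb1*, though called by limma, had p = 0.0952 by the permutation test. *Mzb1* and *Pou2af1* were no longer called without Balb/c mouse 43 (adjusted p = 0.107 and 0.0609, limma), without mouse 45 (0.0801 and 0.0612), or when the 9 ATRX-CT tumors were fitted alone (0.123 and 0.0766). *Mzb1* was also not called without NSG mouse 2 (0.0546) or mouse 5 (0.0552), with a pseudocount of 0.1 (0.0568), or with library weights, where its difference was 0.29 (0.235). *Cd79b* was called lower in Balb/c tumors without NSG mouse 3 (-0.81, adjusted p = 0.0444, limma) and with library weights (-1.02, adjusted p = 0.00226, limma).

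Within ATRX-KD tumors, *Jchain* alone of the 8 was called higher in Balb/c mice (1.34 ± 0.29, adjusted p = 0.00911, limma), beside 3.57% of all genes. *Jchain*, *Ms4a1*, and *Mzb1* lay above all NSG ATRX-KD tumors, beside 5.05% of genes. For *Ms4a1*, Balb/c mice 59 and 60 and NSG mouse 29 were each at an estimated 2.2 fragments, so this separation is not resolved. *Ms4a1* had a difference of 0.24 (adjusted p = 0.136, limma), *Mzb1* of 0.37 (adjusted p = 0.277), and *Pou2af1* of 0.22 (adjusted p = 0.317). By the exact permutation test, without adjustment, *Jchain*, *Ms4a1*, and *Mzb1* had p = 0.0159, the smallest possible. *Pou2af1* had p = 0.0317 and *Pax5* p = 0.0476 by the permutation test, and *Cd79a*, *Cd79b*, and *Tnfrsf17* had p from 0.159 to 0.492. *Ms4a1* was called with library weights (0.29, adjusted p = 0.0185). *Mzb1* was called when mouse 41 was left out, which entered through the shared estimate of spread (adjusted p = 0.0256), and when the 9 ATRX-KD tumors were fitted alone (0.0382). Whether the host difference itself changed with the shRNA was tested as an interaction, reported after the knock-down.

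**Figure D2:**
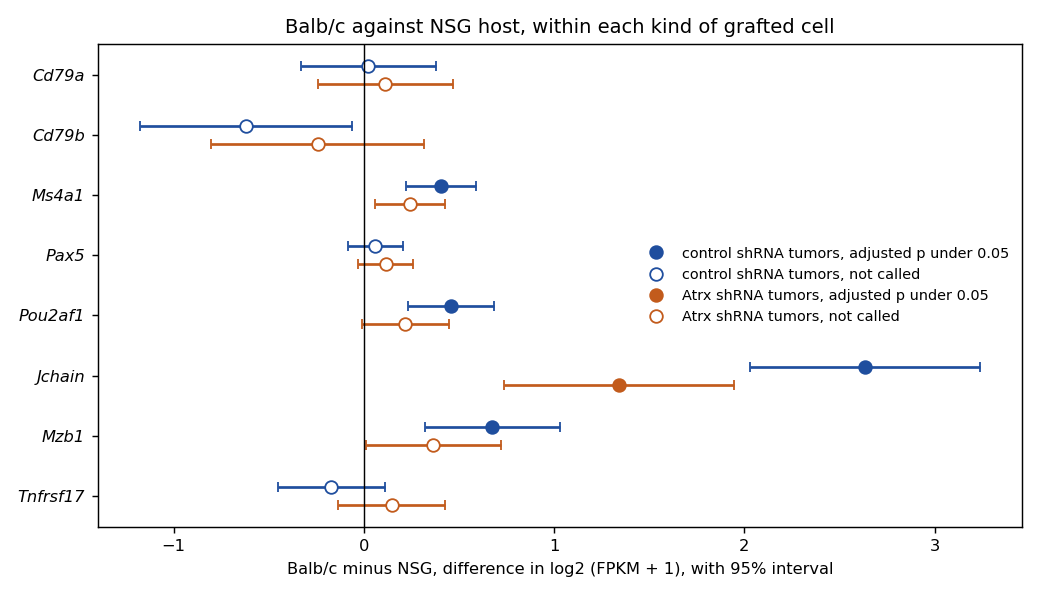
Difference between Balb/c and NSG hosts in log2 (FPKM + 1) on the x axis for each gene, within control shRNA tumors (blue, 4 against 5) and Atrx shRNA tumors (orange, 4 against 5), with 95% intervals from limma; filled points had an adjusted p under 0.05. Jchain lies farthest to the right in both, at 2.64 and 1.34, and Cd79a and Tnfrsf17 have intervals that include 0 in both.

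Other genes of the lineage were read from lists that leave out the 8 genes. Over all genes, 6.83% were called higher in Balb/c tumors, and 1560 of 14803 were called in either direction. A single call in this or a later list was not read as a result about the list. Of 23 genes of the B cell receptor and B cell surface, 16 were tested, 1 was called higher in Balb/c tumors (*Cd22*, an inhibitory receptor, 0.73 ± 0.13), and 1 lower (*Fcrla*, an Fc receptor-like protein, -0.58 ± 0.15). Their median difference was 0.12, against 0.00 over all genes. *Syk*, *Lyn*, and *Btk*, kinases of the receptor that myeloid cells also use, were at 4.1 FPKM or more in every tumor of both hosts. *Cr2* (at most 0.0536 FPKM), *Fcer2a* (0.101), *Blk* (0.134), and *Fcmr* (0.189) were near 0 in all tumors.

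Of 7 B cell transcription factors, all tested, 1 was called higher in Balb/c tumors and 0 lower. This was *Ikzf3*, which mature T cells also express (1.22 ± 0.13), and it was at most 0.0149 FPKM in NSG tumors. Of 16 genes of plasma cells and antibody secretion, all tested, 3 were called higher in Balb/c tumors and 0 lower. These were *Cd27* (1.19 ± 0.11), *Prdm1* (0.55 ± 0.15), and *Irf4* (0.36 ± 0.11), which activated T cells also express. *Xbp1*, the factor of the secretory program, was 71.5 to 100.05 FPKM in Balb/c and 70.6 to 113 FPKM in NSG tumors. The median difference was -0.02 over the transcription factors and 0.04 over the plasma cell list.

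Of 7 genes of B cell precursors, 3 were tested and 0 were called in either direction. Of 9 ligands that act on B cells, 6 were tested, and 1 was called higher in Balb/c tumors (*Il4*, 0.33 ± 0.07) and 1 lower (*Cxcl13*, the chemokine of B cell follicles, -0.85 ± 0.27). *Cxcl13* was 0.0510 to 1.42 FPKM in Balb/c and 0.593 to 7.12 FPKM in NSG tumors. *Tnfsf13b* and *Tnfsf13*, which encode the BCMA ligands BAFF and APRIL, had host differences with adjusted p above the threshold.

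Markers of some other cell types moved with the host as well, beside 6.83% of all genes called higher in Balb/c tumors. Of 10 T cell genes 8 were called higher in Balb/c tumors, and their summed level was 21.9 to 47.3 FPKM against 1.2 to 6.4 in NSG tumors, where *Cd3e* was listed at 0 in 8 of 10. Of 7 NK cell genes 6 were called higher and 1 lower, with a summed level of 31.7 to 242 FPKM against 5.07 to 26.0. The gene called lower was *Klra8*, at 5.03 to 25.8 FPKM in NSG tumors, and without it the sum of the other 6 genes in NSG tumors was 0.0400 to 0.197 FPKM. Of 6 endothelial genes 3 were called higher, with a summed level of 38.7 to 139 FPKM against 16.4 to 53.2. Of 10 genes of plasmacytoid dendritic cells, which also use *Mzb1*, 0 were called in either direction (limma, adjusted p under 0.05), and *Siglech* was 0.667 to 1.7 FPKM in Balb/c and 0.442 to 1.89 FPKM in NSG tumors. Of 8 macrophage genes 0 were called higher and 1 lower, and of 6 conventional dendritic cell genes 1 was called higher and 0 lower. Of 6 measured genes of lymph node stroma and vessels, *Ltb* was called higher (2.47 ± 0.12), and *Ccl19* and *Glycam1* were listed at 0 in all 8 Balb/c tumors. The part of these cell types in the host differences of the 8 genes was not tested. In Balb/c tumors *Ms4a1* was 0.00944 to 0.163 of *Cd3e* in FPKM.

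**Figure D3:**
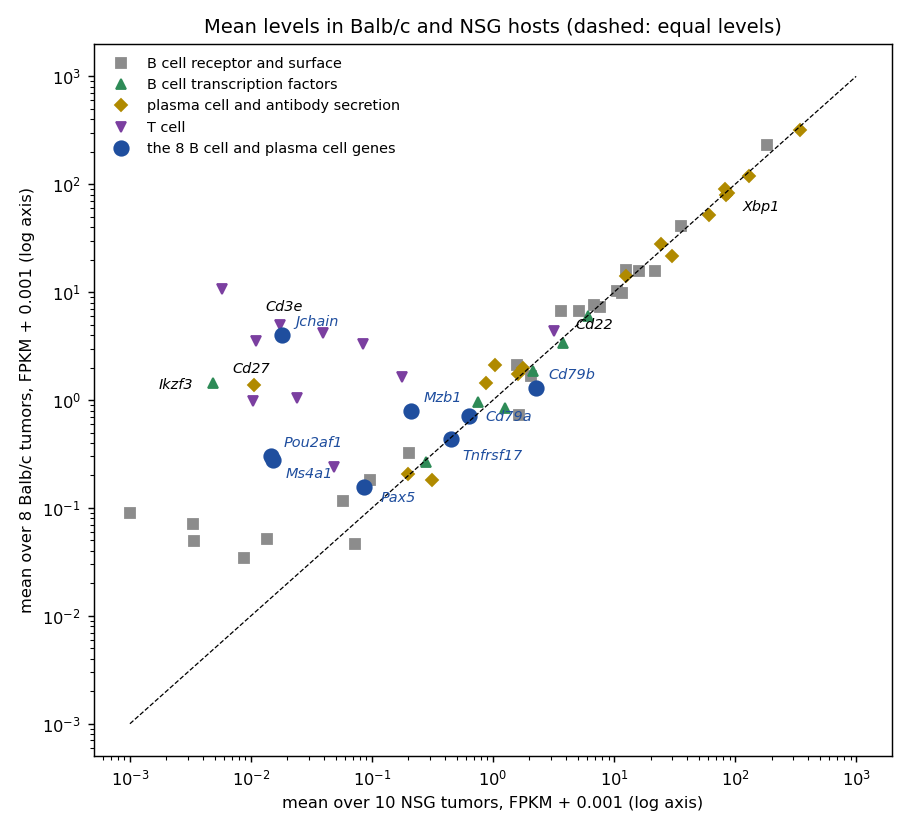
Mean FPKM + 0.001 over the 8 Balb/c tumors (y axis) against that over the 10 NSG tumors (x axis), both on log axes, for the 8 genes (large blue dots) and for listed B cell, plasma cell, and T cell genes; the dashed line marks equal levels. Jchain, Ms4a1, and Pou2af1 lie above the line with most T cell genes, whereas Cd79a, Cd79b, Pax5, and Tnfrsf17 lie near it with Xbp1.

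The comparison of ATRX-KD with ATRX-CT tumors in Balb/c mice asked whether the genes changed with the knock-down in an immunocompetent host. By limma, 0 of 8 genes were called, beside 0.0068% of 14701 genes (1 gene), and 1 of 8 genes, *Jchain*, and 609 of all genes had an unadjusted p under 0.05. The median log2 difference was -0.05, against 0.00 over all genes. The study tested the same groups with the package DESeq and reported genes that changed in both directions. With so few calls over all genes here, the absence of a call does not show that a gene was unchanged. *Jchain* averaged 6.44 ± 5.04 FPKM (SD, n = 4) with the control shRNA and 1.65 ± 0.797 FPKM (SD, n = 4) with the *Atrx* shRNA, a ratio of 3.91, and of 2.42 without mouse 43. Its difference was -1.34 ± 0.42 in log2 (FPKM + 1) (SE, 95% interval -2.29 to -0.39, adjusted p = 0.81, limma). The 4 ATRX-KD tumors were below the 4 ATRX-CT tumors without overlap (exact permutation test, p = 0.0286, the smallest that 4 against 4 allow), beside 3.18% of genes whose groups did not overlap. Without mouse 43, which was also the deepest Balb/c library (24500000 estimated fragments) and had the most genes above 0 (18212), the difference was -0.94.

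The other 7 genes were not called in this comparison, and their groups overlapped. *Mzb1* averaged 1.05 ± 0.657 FPKM (SD, n = 4) with the control shRNA and 0.530 ± 0.0655 FPKM (SD, n = 4) with the *Atrx* shRNA, with a difference of -0.36 ± 0.23. *Pou2af1* had a difference of -0.22 ± 0.16 and *Ms4a1* of -0.14 ± 0.13. *Cd79a* (0.10), *Cd79b* (0.06), *Pax5* (0.05), and *Tnfrsf17* (0.16) had differences on the ATRX-KD side, with intervals that included 0. Of the lists, 0 genes were called for B cell receptor and surface (17 tested), B cell transcription factors (7), and plasma cells (16), and the same held for T cell (10), NK cell (6), and macrophage genes (8).

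**Figure D4:**
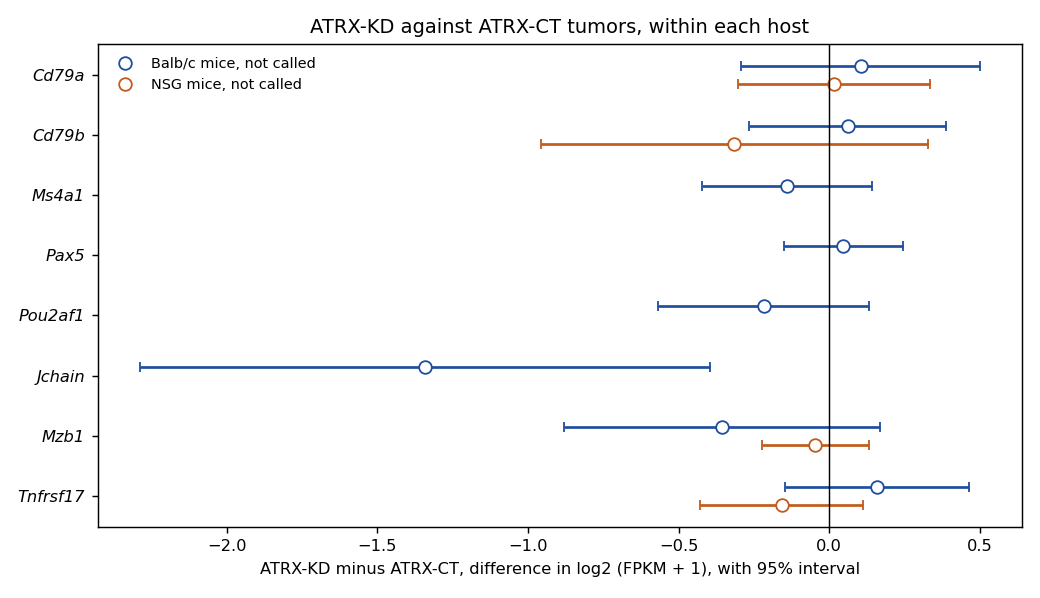
Difference between ATRX-KD and ATRX-CT tumors in log2 (FPKM + 1) on the x axis for each gene, in Balb/c mice (blue, 4 against 4) and NSG mice (orange, 5 against 5), with 95% intervals from limma; open points were not called, and 4 genes were below the filter on low values in NSG tumors. The Jchain interval in Balb/c mice, from -2.29 to -0.39, lies to the left of 0, and the other intervals include 0.

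In NSG mice, 4 of the 8 genes (*Cd79a*, *Cd79b*, *Mzb1*, and *Tnfrsf17*) passed the filter of a mean of 0.1 FPKM. Of these, 0 were called by limma and 0 had an unadjusted p under 0.05, beside 6.78% of 14654 genes called and 3853 genes with an unadjusted p under 0.05. The groups of all 8 genes overlapped, beside 7.5% of genes whose groups did not. The differences were 0.02 ± 0.15 for *Cd79a*, -0.32 ± 0.29 for *Cd79b*, -0.05 ± 0.08 for *Mzb1*, and -0.16 ± 0.12 for *Tnfrsf17*. With library weights, *Cd79b* (-0.65, adjusted p = 0.0173) and *Tnfrsf17* (-0.30, adjusted p = 0.0386) were called lower in ATRX-KD tumors. The other 4 genes were listed at 0 or were at most 0.156 FPKM in every NSG tumor.

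Of 44 tested genes in the 5 lists of B cell, plasma cell, and ligand genes, 4 were called with the knock-down in NSG mice, or 9.09%, beside the 6.78% of all genes. The lists of B cell receptor and surface (15 tested) and of B cell precursors (3 tested) had 0 calls (limma). *Bach2*, a repressor of plasma cell differentiation, fell by 0.71 in log2 (FPKM + 1), as 1 of 6 tested B cell transcription factors. Among 15 tested plasma cell genes, *Cd38* fell by 0.87, and *Sdc1*, the gene of CD138 that osteosarcoma and epithelial cells may also express, rose by 0.60. *Tnfsf13* fell by 1.08, as 1 of 5 tested ligands. Of the other lists, *C1qb* fell by 0.74 among 8 macrophage genes, and *Pecam1* (0.93) and *Cldn5* (0.80) rose among 6 endothelial genes. *Klra8*, the 1 tested NK cell gene, fell by 0.94, and *Eif2s3y*, a Y-linked gene, fell by 0.70 as 1 of 4 tested genes of host genotype.

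The test of the difference between the effect of the knock-down in Balb/c and that in NSG mice is also the test of whether the host difference changed with the shRNA. By limma, 0 of 8 genes were called, beside 0% of 14803 genes, and 1 of the 8 and 1527 of all genes had an unadjusted p under 0.05. That gene was *Jchain*, with -1.29 ± 0.41 (SE, adjusted p = 0.308, limma). Since *Jchain* was at or under 3 fragments in 9 of 10 NSG tumors, a decrease there could not have been detected. With library weights, *Tnfrsf17* was called (0.53, adjusted p = 0.0362).

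Across the 8 Balb/c tumors, both shRNAs together, *Jchain*, *Pou2af1*, and *Mzb1* were high and low in partly the same tumors. Mouse 43 was the highest for all 3 genes, and mouse 59 was the lowest for *Jchain* and *Pou2af1*. Pearson's r in log2 (FPKM + 1) was 0.85 for *Jchain* with *Pou2af1* (Spearman's rho 0.74; exact permutation test, p = 0.00692 and 0.0458). Adjusted over 28 pairs of genes, these were 0.0969 and 0.449 (Benjamini-Hochberg). Without mice 43 and 59, the farthest from the median of *Jchain*, r was 0.40, so this relation rested on those tumors. The permutations ran over all 8 tumors whatever their shRNA, and *Jchain* differed between the shRNAs without overlap. In deviations from the mean of each shRNA group, computed after the data were seen, r was 0.86 for *Jchain* with *Pou2af1*, 0.72 for *Jchain* with *Mzb1*, and -0.84 for *Pou2af1* with *Tnfrsf17*.

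For *Jchain* with *Mzb1*, r was 0.78 (rho 0.71; exact permutation test, p = 0.0217 and 0.0576; adjusted p = 0.163 and 0.449), and it was 0.68 without mice 43 and 59. For *Pou2af1* with *Tnfrsf17*, r was -0.87 (rho -0.79; exact permutation test, p = 0.00347 and 0.0279; adjusted p = 0.0969 and 0.449), and it was -0.85 without mice 43 and 45. In these tumors *Tnfrsf17* was at only about 2.8 to 8.7 fragments, with 2 of 8 at or under the floor, and its levels are imprecise. The 2 receptor chains, *Cd79a* and *Cd79b*, had r = -0.39 (rho -0.29; exact permutation test, p = 0.316 and 0.501; adjusted p = 0.731 and 0.825), and 0.00 without mice 44 and 60. With 4 tumors per group, no correlation was computed for a single shRNA group, and the deviations given above pool both groups.

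**Figure D5:**
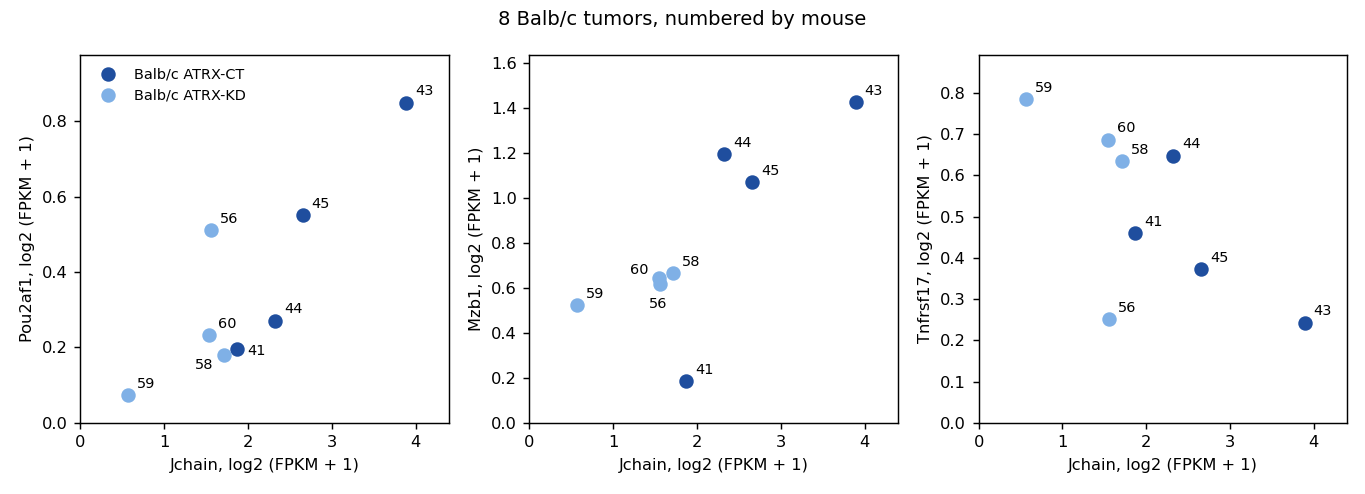
Levels of Pou2af1, Mzb1, and Tnfrsf17 (y axes) against that of Jchain (x axes), all as log2 (FPKM + 1), in the 8 Balb/c tumors, with 1 dot per tumor numbered by mouse and colored by shRNA. Mouse 43 is highest for Jchain, Pou2af1, and Mzb1, and mouse 41 is lowest for Mzb1 at a middle level of Jchain.

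By the same measure over 14693 genes, the genes most like *Cd79a* in the 8 Balb/c tumors were *Ctnnbip1* (r = 0.93), *Bsn* (0.92), *St6galnac6* (0.92), *Lypd2* (0.92), and *Plppr4* (0.91). Those most like *Jchain* were *Olfr111* (r = 0.94), *Lman1l* (0.94), *Tbxa2r* (0.93), *Cc2d1a* (0.93), and *Uhrf1bp1l* (0.93). No listed B cell or plasma cell gene was among either 5, and with 8 tumors and this many genes the values serve only to name them.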

How the data were processed

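RNA of 18 K7M2 tumors was analysed, each mapped by its label to a host, an shRNA, and a mouse. Per the submitters' processing notes and the methods, the authors aligned reads to mm10 with STAR 2.6.0c and quantified genes with Cufflinks 2.2.1. The deposited matrix holds log2 (FPKM + 1) by the authors, with 20970 entries, of which 92 were spike-ins and were left out. Whether counting used the strand of these stranded libraries is not given in the sources used here. The base of the logarithm was settled from the values, since FPKM summed over transcript length was 1.02 to 1.03 times the total expected with base 2, and 7.65 to 9.72 times with the natural logarithm.

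Low FPKM values fall in steps, which gave an estimate of depth. Since at most 42.0% of the low values came within 0.1 of a whole number of fragments (20% by chance), whole reads were not recovered, and no count test was run. Fragments per gene are therefore estimates, and a floor of 3 fragments allows for counting error alone. The package limma 3.58.1 (lmFit and trended eBayes, under R 4.3.3) was used on log2 (FPKM + 1). Genes whose mean over the fitted tumors reached 0.1 FPKM entered, p-values were adjusted over all of them (Benjamini-Hochberg), and an adjusted p under 0.05 was a call. Comparisons of hosts and the interaction used all 18 tumors, and the knock-down was fitted within each host. The limma steps were tried on simulated data with changes planted only in genes at higher levels than these 8. How the steps perform on genes this low was not tested. For single genes, 40 two-sided exact permutation tests were run in Python 3.11.15, without adjustment. All 8 genes passed the filter over 18 and over the Balb/c tumors, and 4 of 8 over the NSG tumors.

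The genes and lists were chosen with earlier results of these data known. Named beside the 8 genes are *Prkdc*, *Il2rg*, *Atrx*, *Ddx3y*, up to 4 called genes per list and comparison, the 5 genes most like *Cd79a* and *Jchain*, and genes of the lists named for their level after their values were seen (*Cr2*, *Fcer2a*, *Blk*, *Fcmr*, *Syk*, *Lyn*, *Btk*, *Xbp1*, *Siglech*, *Cd3e*, *Ccl19*, *Glycam1*, *Cd4*, *Cd209a*, *Tnfsf13b*). The values of 1 other list gene are not reported here. Alternatives were a pseudocount of 0.1, median-ratio scaling, no filter or one of 1 FPKM, a fold of at least 2, library weights with a robust prior, other tumors in the fit, removal of the trend with transcript length, and leaving out each tumor. *Prkdc* had a host difference of 0.29 (adjusted p = 0.205). Coordinates are those of the authors' annotation, and promoter windows came from RefSeq.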

Additional observations from a re-analysis of the deposited data

Results flagged for a closer look

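Among 31 groups of a gene checked for a tumor far from the others, 3 had one, where chance gives about 1 in 20, or 1.55. The measure was the gap of the extreme tumor to its nearest neighbor as a share of the range of its group in log2 (FPKM + 1).

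For *Jchain*, Balb/c ATRX-KD mouse 59 was the lowest at 0.478 FPKM, against 1.91 to 2.27 FPKM in the other 3 tumors, and the gap was 0.853 of the range. For *Ms4a1*, NSG ATRX-CT mouse 4 was the highest at 0.0331 FPKM with the other 4 tumors listed at 0, so the gap was 1, the whole range. For *Pou2af1*, NSG ATRX-CT mouse 5 was the highest at 0.0289 FPKM with the other 4 tumors listed at 0, and the gap was again 1. The last values stand for about 1 fragment each. Where all other tumors of a group are at 0, the gap is 1 at any level of the highest, so these gaps carry no information.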

How the results depend on the processing

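In the comparison of hosts, 4 of 8 genes were called, and 1 under a filter of 1 FPKM, which left only *Jchain* and *Cd79b* to test, and 1 with a fold of at least 2, which low genes can hardly reach on the log2 (FPKM + 1) scale and which only *Jchain* met. Within ATRX-CT tumors the count was 1 under each of these settings, 2 when these tumors were fitted alone, and 2 to 5 when 1 tumor was left out. Within ATRX-KD tumors it was 2 with library weights, 2 in the fit of these tumors alone, and 1 to 2 when 1 tumor was left out. With library weights it was 2 for the knock-down in NSG mice and 1 for the interaction, against 0. The cause of these changes was not tested.

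Direction changed only for genes that were not called. With the length trend removed, the host difference of *Tnfrsf17* was 0.15, and 0.047 in ATRX-CT tumors; the knock-down difference of *Mzb1* in NSG mice was 0.014, and the interaction of *Pax5* was -0.014. With library weights, the host difference of *Cd79a* in ATRX-CT tumors was -0.013 and the interaction of *Mzb1* was 0.10. Leaving out 1 tumor gave -0.050 to 0.044 for the host difference of *Tnfrsf17*, -0.090 to 0.13 for that of *Cd79a* in ATRX-CT tumors, -0.019 to 0.14 for the knock-down of *Cd79b* and -0.013 to 0.098 for that of *Pax5* in Balb/c mice, -0.098 to 0.12 for that of *Cd79a* in NSG mice, and -0.015 to 0.23 and -0.0058 to 0.10 for the interactions of *Cd79a* and *Pax5*. *Jchain* kept its direction and its side of the threshold in all of these alternatives, with an adjusted p of 0.106 to 0.953 for the knock-down in Balb/c mice over the settings and 0.775 to 1.00 over the tumors left out.

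Over all genes, the calls between hosts were 1560, and 213 to 3274 under other settings. They were 828 (228 to 3752, and 438 to 1487 without 1 tumor) in ATRX-CT and 714 (222 to 2210, and 475 to 809) in ATRX-KD tumors. The knock-down gave 1 (0 to 22, and 0 to 2) in Balb/c and 994 (68 to 5414, and 144 to 2080) in NSG mice, and the interaction 0 (0 to 1985, and 0 to 1). The highest counts were those with library weights. *Pax5* and *Ms4a1* in all 10 NSG tumors, and *Jchain* and *Pou2af1* in 9 of 10, were at or under 3 fragments, so levels there are imprecise. No paired analysis was possible because the groups share no mouse numbers.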

Other observations

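The spread of *Cd79b* among NSG ATRX-CT tumors was followed after its values were seen. Mice 1, 4, and 5, with 3.68, 4.56, and 3.5 FPKM of *Cd79b*, had 4.2, 5.58, and 5.62 FPKM of *Cd4*, whereas mice 2 and 3, with 1.01 and 0.993 FPKM of *Cd79b*, had 1.0 and 1.19 FPKM of *Cd4*. *Cd209a*, a gene of dendritic cells, was 0.565, 1.81, and 1.04 FPKM in mice 1, 4, and 5 and 0.148 and 0.15 FPKM in mice 2 and 3. In the same 5 tumors *Cd3e* was at most 0.112 FPKM, and *Ms4a1* was at most 0.0331 FPKM. Libraries of mice 1, 4, and 5 held fewer estimated fragments (15150000, 18000000, and 17350000) than those of mice 2 and 3 (19250000 and 24300000). *Cd4* and *Cd209a* were picked after their values were seen, and the other conventional dendritic cell genes are not given for these tumors. None of these values was tested.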
